A study of Homo sapiens with 6 samples.

Results

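PIEZO1 was described here through the 12 entries of the deposited lists of differentially methylated regions that overlap chromosome 16: 88714000-88786500 (hg38), which is the gene with about 1 kb on each side. The 3 lists hold 4344 entries in all. Reduced representation bisulfite sequencing (RRBS) had been run on HepG2, an established human hepatocellular carcinoma line. One group comprised 3 libraries of cells given a lentivirus for overexpression of DNMT3A, an enzyme that methylates DNA de novo, and the other 3 libraries of cells given a control lentivirus, labelled WT for genotype. Each list compares an overexpressing with a control library of equal number, called pair 1, 2 or 3 below. Both groups were HepG2 cells grown in the same medium, and lentivirus was used to build the overexpressing line. Whether separate cultures lie behind the libraries is not stated in the labels, so any spread between them may be technical. RRBS measures no RNA or protein, so neither the amount of PIEZO1 nor the markers of the cell type were measured. Mapped reads ranged from 25764323 to 29924507 per library.

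PIEZO1 encodes a large cation channel of the plasma membrane that opens when the membrane is stretched and lets calcium into the cell. It is known for its roles in red blood cell volume and in the development of blood and lymphatic vessels, and in mice it has been tied to the control of liver hepcidin and iron. DNMT3A adds methyl groups to cytosines of CpG sites that carry none, and such methylation can lie at promoters or within the transcribed body of a gene, where its relation to transcription differs. RRBS reads the fragments left by MspI, an enzyme that cuts at CCGG whether or not the inner cytosine is methylated, and so samples mainly CpG-rich DNA.

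All 12 entries of PIEZO1 were higher in the DNMT3A-overexpressing library, and none was lower. The lists are mostly gains, with 82.1%, 81.7% and 81.1% of all entries higher in pairs 1, 2 and 3. The direction of the PIEZO1 entries is therefore read no further. Pair 1 listed 3 entries in the gene, pair 2 listed 4 and pair 3 listed 5. An entry exists only where the authors called a difference in that pair, so the entries were selected on the methylation levels given below. These are a description, with no test.

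Entries of different pairs that overlapped by at least 1 bp were joined, which left 4 distinct regions. They are named A to D from the start of the gene, which is transcribed from the minus strand and spans chromosome 16: 88715338-88785220 in RefSeq, a length of 69883 bp. Region A lies at chromosome 16: 88782755-88782872, from 2.35 to 2.46 kb inside the gene. Region B lies at 88770700-88771314, from 13.9 to 14.5 kb inside. Region C lies at 88763894-88763976, 21.2 to 21.3 kb inside, and region D at 88759348-88760866, 24.4 to 25.9 kb inside. All 4 are within the gene body and in no other annotated gene, and whether they are exonic or intronic was not analysed here.

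The start of the gene itself was in no list. Its promoter is shown because it holds the sites that RRBS needs while the nearest listed region, A, begins 2.30 kb away. The RefSeq sequence (GRCh38.p14, chr16:88785171-88785470, minus strand) runs from 250 bases before to 50 bases after the annotated start. Capitals mark the MspI site CCGG, which reads the same on both strands and contains 1 of the CpG sites counted.
PIEZO1 promoter: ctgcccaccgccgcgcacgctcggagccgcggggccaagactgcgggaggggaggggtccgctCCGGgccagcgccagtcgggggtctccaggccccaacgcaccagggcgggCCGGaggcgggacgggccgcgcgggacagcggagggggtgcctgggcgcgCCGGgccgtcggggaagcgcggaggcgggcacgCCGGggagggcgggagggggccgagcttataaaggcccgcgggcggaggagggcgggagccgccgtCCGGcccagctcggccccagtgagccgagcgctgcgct
These 300 bases hold 5 CCGG sites and 44 CpG sites. At least 1 CCGG is present in 75.8% of the 15843 protein-coding promoters of the same length in that table, and 5 or more in 20.7%. The median promoter holds 2 CCGG and 22 CpG sites, and 5.55% have as many CpG sites as PIEZO1. A listed region overlapped 0.757% of these promoters. The lists give no coverage, so absence of an entry at the PIEZO1 promoter says only that no difference was called there.

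**Figure D1:**
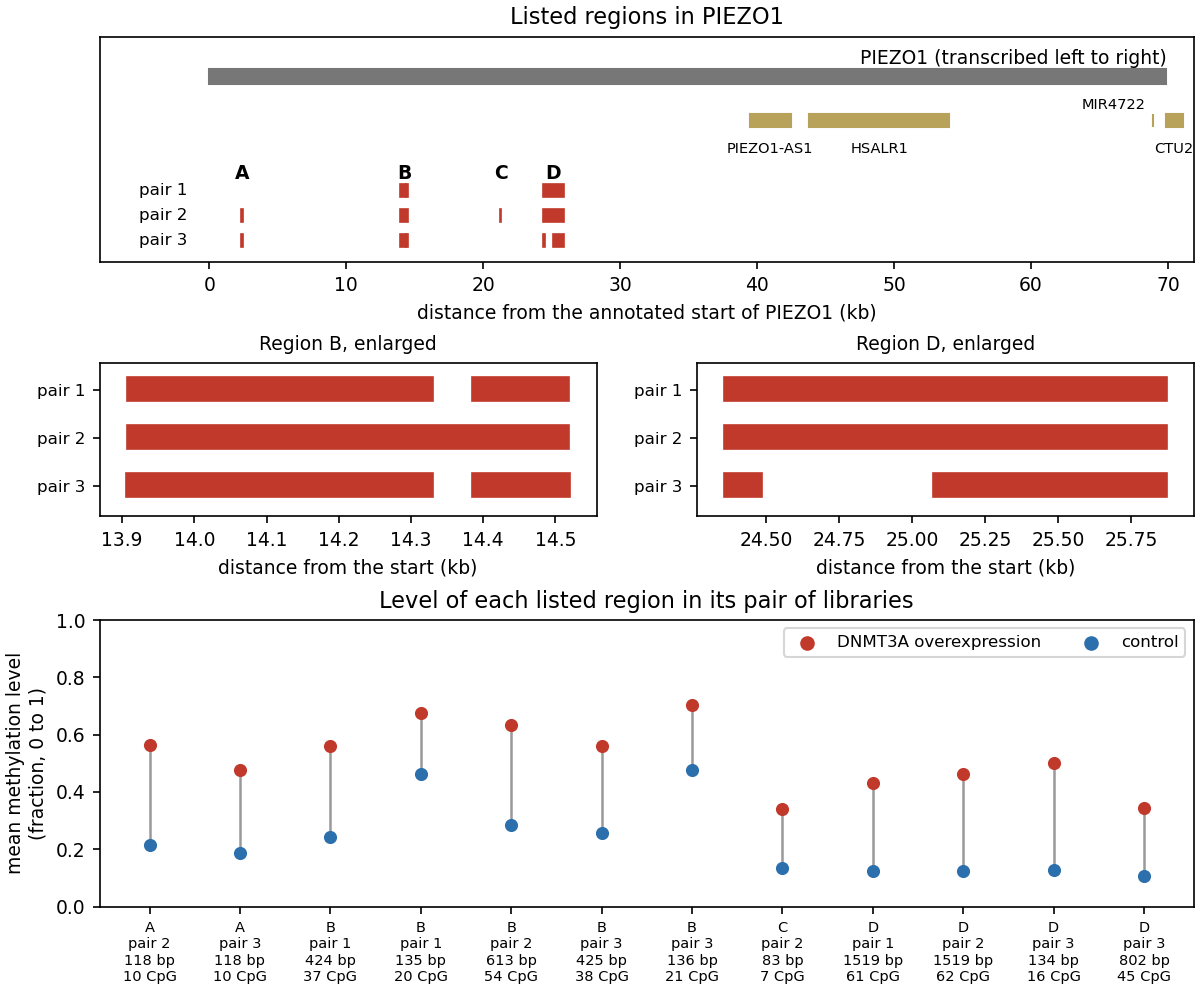
The top panel draws PIEZO1 (grey), the other annotated genes (tan; CTU2 is cut at the edge) and the listed regions of each pair (red) by distance from the annotated start in kb. The middle panels enlarge regions B and D, and the bottom panel gives the methylation level of each entry (red, DNMT3A overexpression; blue, control). All 12 red points lie above their blue points, and all regions lie in the stretch from 2.35 to 25.9 kb.

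Regions B and D were listed in all 3 pairs, A in pairs 2 and 3, and C in pair 2 alone. Of the 3313 distinct regions of the series, 8.21% were listed in all 3 pairs and 7.97% were higher in all 3. Regions B and D together held 118 of 118 listed CpG sites of the gene in pair 1, 116 of 133 in pair 2 and 120 of 130 in pair 3. The gene's values thus come mainly from these 2 regions.

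Region D was the longest, spanning 1519 bp. Its methylation level was 0.431, 0.462 and 0.386 in overexpressing libraries 1, 2 and 3, against 0.124, 0.125 and 0.114 in control libraries 1, 2 and 3. The lowest overexpressing library lay 0.261 above the highest control, so the groups did not overlap. The level averaged 0.426 ± 0.0383 with DNMT3A overexpression and 0.121 ± 0.00636 in controls (SD, n = 3 each), a difference of 0.305 ± 0.0324 (SD, n = 3 pairs). The 3 controls were thus closer to each other at D than the 3 overexpressing libraries were. This is not particular to D, as the 264 regions higher in all 3 pairs had median SDs of 0.0338 with overexpression and 0.0216 in controls. Region B went the other way, with SDs of 0.0165 and 0.0258.

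The outer ends of region D fell on the same 2 bases in all 3 pairs, but pair 3 listed it in 2 pieces with 583 bp between them. The piece nearer the start of the gene (88760733-88760866, 16 CpG sites) stood at 0.503 in overexpressing library 3 and 0.129 in control library 3. The farther piece (88759348-88760149, 45 CpG sites) stood at 0.344 and 0.108 in the same libraries. Both pieces thus began from a similar control level, while the difference was 0.374 in the nearer piece and 0.236 in the farther one. The pieces held 61 CpG sites together, against 61 and 62 sites in the undivided region of pairs 1 and 2. By these counts the 583 bp between the pieces added few sites, if any, to the undivided region. The undivided region D had 4.02 and 4.08 counted CpG sites per 100 bp in pairs 1 and 2, against medians of 10.9 and 11.1 over all entries of those lists. In pair 3, which left out the 583 bp, the nearer piece had 11.9 and the farther piece 5.61, against a median of 11.1.

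Region B had the highest levels of the 4 regions in both groups. It stood at 0.600, 0.632 and 0.612 in overexpressing libraries 1, 2 and 3, and at 0.320, 0.284 and 0.335 in control libraries 1, 2 and 3. The groups did not overlap, with 0.265 between the lowest overexpressing library and the highest control. The mean level was 0.615 ± 0.0165 with overexpression and 0.313 ± 0.0258 in controls (SD, n = 3 each), and the difference 0.302 ± 0.0401 (SD, n = 3 pairs). Among the 272 distinct regions listed in all 3 pairs, 95.6% had every overexpressing library above every control, so the separation seen at B and D was the usual one among such regions.

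Pairs 1 and 3 listed region B as 2 pieces, 54 bp apart, that differed in their starting level. The piece farther from the start of the gene was at 0.674 and 0.704 in overexpressing libraries 1 and 3, and at 0.463 and 0.476 in control libraries 1 and 3. The nearer piece was at 0.559 and 0.561 in those overexpressing libraries, and at 0.242 and 0.256 in those controls. In both pairs the piece with the lower control level had the larger difference, 0.317 and 0.305 against 0.211 and 0.227. The farther piece had 14.8 and 15.4 counted CpG sites per 100 bp, and the nearer one 8.73 and 8.94. In pair 2 region B was 1 entry of 613 bp and 54 CpG sites. The pieces of pair 1 had the same outer ends but 57 sites together. The deposited count thus differed between pairs and may not include every CpG of the sequence.

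Region A, the one nearest the start, was listed with identical ends and 10 CpG sites in pairs 2 and 3. Its level was 0.563 and 0.477 in overexpressing libraries 2 and 3, against 0.213 and 0.186 in control libraries 2 and 3, with differences of 0.350 and 0.291. Region C was an entry of 83 bp and 7 CpG sites, at 0.341 in overexpressing library 2 and 0.136 in control library 2. Its difference of 0.205 was the smallest of the 12 entries, and it has no second pair to set beside it. Pair 1 listed neither region, which leaves their levels in libraries 1 unknown.

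**Figure D2:**
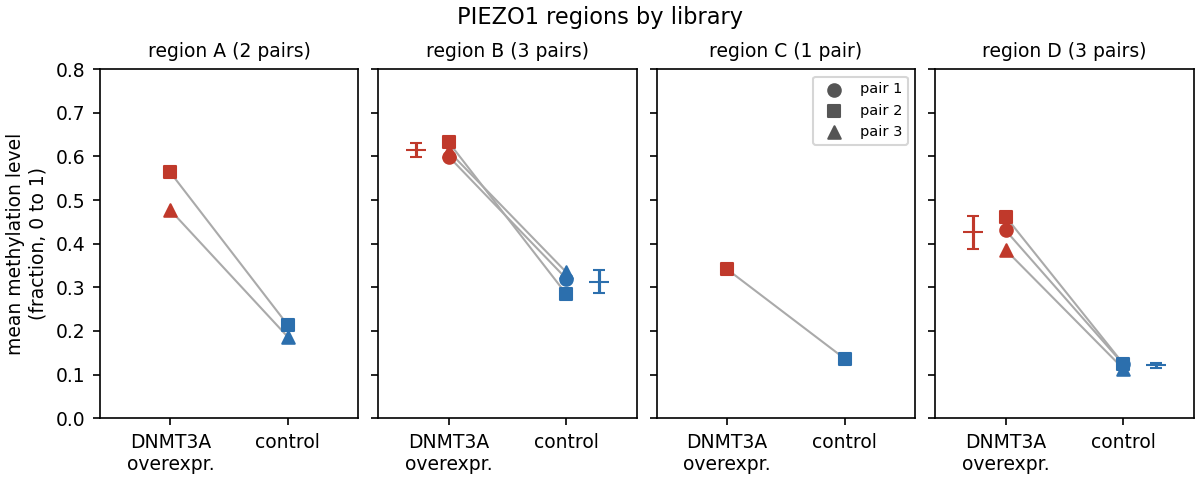
Methylation level (fraction) of each distinct region, with the DNMT3A-overexpressing libraries (red) left of the controls (blue) and grey lines joining the libraries of a pair. Bars beside regions B and D are the mean ± SD of 3 libraries, and no library of one group falls within the range of the other.

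The regions kept the same order in both pairs that listed 3 or more of them. With overexpression the order from high to low was B, A, D and C in pair 2, and B, A and D in pair 3. In control libraries 2 and 3 it was again B and then A. Controls at C and D were close, 0.136 and 0.125 in pair 2, where no replicate of C shows its spread. No value of one of the regions A, B and D fell within the range of another in the same group. Across A, B and D, differences varied less than levels, with means of 0.321 at A, 0.302 at B and 0.305 at D. These lie within 1 SD of each other (0.0420, 0.0401 and 0.0324 between pairs, n = 2 pairs at A and 3 at B and D). Region C stood apart, with a difference of 0.205 in pair 2 against 0.350, 0.348 and 0.337 at A, B and D.

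Pair 2 gave the largest difference at each of A, B and D. Over all higher entries the 3 pairs had medians of 0.264, 0.266 and 0.265, and among the 264 regions higher in all 3 pairs the largest difference was in pair 2 at 33.7%. By these values pair 2 did not stand apart over the series. Its overexpressing and control libraries had 27958476 and 26912596 mapped reads, against 29924507 and 29269281 in pair 1 and 25764323 and 27197410 in pair 3. The part of depth in these differences was not tested.

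Over all its listed CpG sites, PIEZO1 stood at 0.512, 0.532 and 0.495 in overexpressing libraries 1, 2 and 3, and at 0.219, 0.197 and 0.219 in control libraries 1, 2 and 3. The mean was 0.513 ± 0.0186 with overexpression and 0.212 ± 0.0127 in controls (SD, n = 3 each), a difference of 0.302 ± 0.0306 (SD, n = 3 pairs). The median higher entry of the series stood at 0.505, 0.508 and 0.523 in overexpressing libraries 1, 2 and 3, and at 0.184, 0.192 and 0.209 in control libraries 1, 2 and 3. Averaged over the gene, PIEZO1 levels were thus close to those medians, while region B lay above and region D below them in both groups. The gene's difference of 0.302 was above the medians of 0.264, 0.266 and 0.265 over the higher entries of pairs 1, 2 and 3.

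**Figure D3:**
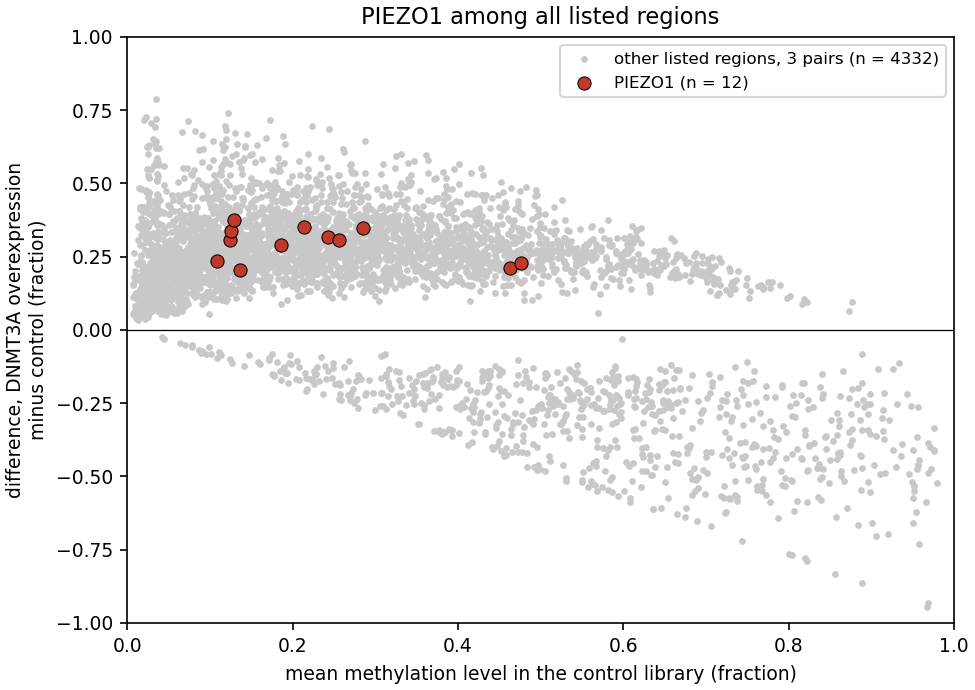
Each grey point is a listed region of 1 pair, placed by its control level (x axis, fraction) and its difference, DNMT3A overexpression minus control (y axis, fraction). The 12 PIEZO1 entries (red) lie between control levels of 0.108 and 0.476 and differences of 0.205 and 0.374, inside the main cloud of gains.

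Regions B and D were long where a pair listed them undivided, while A and C, at 118 and 83 bp, were near the list medians of 100 to 102 bp. The larger piece of a split region was long too. It was 424 and 425 bp for B in pairs 1 and 3, and 802 bp for D in pair 3. The smaller pieces, of 135, 136 and 134 bp, were nearer the medians. The area score, a value of the authors' deposited table whose definition is not stated there, placed region D 12th of 1483 entries in pair 1 and 9th of 1433 in pair 2. The pair 2 entry of region B ranked 15th by the same score. Where they were split, the pieces of B ranked 58 and 308 in pair 1 and 51 and 275 of 1428 in pair 3, and those of D ranked 47 and 195 in pair 3. The entries of A ranked 686 and 774 in pairs 2 and 3, and that of C ranked 993 in pair 2. By difference alone the entries of D ranked 430 and 313 in pairs 1 and 2, and that of B ranked 280 in pair 2. Among the 264 regions higher in all 3 pairs, D had the 4th longest span and B, at 615 bp, the 24th, against a median of 194 bp. The mean differences of D and B ranked 94 and 102 of these 264, whose median was 0.280. The undivided length and the span of D include the 583 bp that pair 3 left out, where few CpG sites were counted.

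The number of entries was set beside that of other genes. Of 20056 protein-coding genes, 8.84% had at least 1 listed region within 1 kb in any pair, 1.21% had one in each of the 3 pairs, and 0.105% had 2 or more distinct regions each listed in all 3 pairs, as PIEZO1 did. The median of the 1773 listed genes was 1 entry, and 9 genes had more than the 12 of PIEZO1, which include the separate pieces of B and D. By distinct regions 32 genes had more than its 4, and PIEZO1 was 1 of 19 with that number. By regions listed in all 3 pairs, 7 genes had more than its 2. Only CACNA1H and SLCO4A1 had at least as many entries in a gene no longer than PIEZO1. CACNA1H, a T-type calcium channel gene, had 39 entries and 5 distinct regions listed in all 3 pairs. SLCO4A1, an organic anion transporter gene, had 13 and 3. PIEZO1 was chosen with these counts known, so its place is a description.

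Apart from PIEZO1, 20 genes had 2 or more such regions. GNG7, which encodes a G protein gamma subunit, had 6. EPHA2, an ephrin receptor gene, NFIX and BCL11B, both transcription factor genes, and BCOR, a transcriptional corepressor gene, had 3 each, as SLCO4A1 did. Among those with 2, the largest mean differences were in NXN (0.388), AHDC1 (0.350) and ZFHX3 (0.301). Each mean was taken over all listed regions of the gene, not only those listed in all 3 pairs. The mean difference was 0.255 in GNG7, 0.231 in CACNA1H, 0.349 in EPHA2, 0.304 in SLCO4A1, 0.272 in NFIX, 0.257 in BCL11B and 0.190 in BCOR, against 0.302 in PIEZO1.

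**Figure D4:**
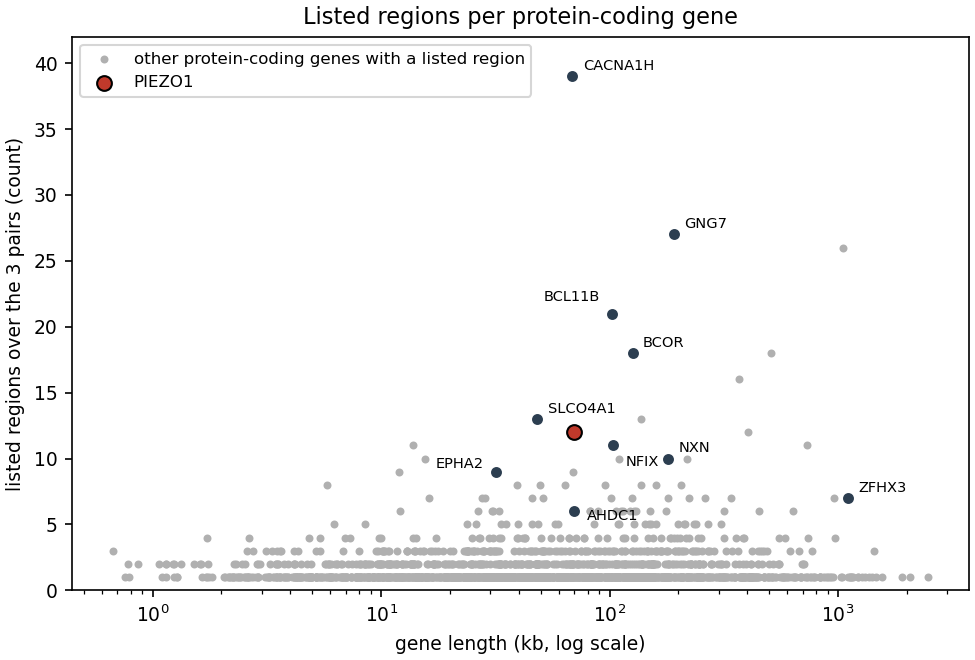
Number of listed regions over the 3 pairs (y axis) by gene length in kb (x axis, log scale) for the 1773 protein-coding genes with a region within 1 kb. PIEZO1 (red) has 12, and the named genes (dark) are the 10 leading ones of the 20 others with 2 or more distinct regions listed in all 3 pairs.

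Likeness to PIEZO1 was measured by the root mean square difference of the 6 library levels, averaged over a gene's listed CpG sites. Over 241 genes with an entry in each pair, the nearest were CRTC1 (0.0253), OSBPL2 (0.0271), MTG2 (0.0278), SLCO4A1 (0.0314) and DENND1A (0.0340), against a median of 0.141. CRTC1 encodes a coactivator of CREB and OSBPL2 an oxysterol-binding protein. CRTC1 averaged 0.542 with overexpression and 0.207 in controls, and OSBPL2 averaged 0.524 and 0.215. SLCO4A1 was the only one of these 5 with more than 1 distinct region listed in all 3 pairs.

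The 4 regions lie in the part of PIEZO1 nearest its start, with midpoints at 3.44%, 20.3%, 30.5% and 35.9% of its length. Position was not used to choose them. Over the 1256 placements of higher regions inside protein-coding genes, the median midpoint was at 36.4% of the length (interquartile range 11.7% to 66.6%), and 50.2% fell within the first 37.0% that holds the PIEZO1 regions. For genes of 50 to 100 kb the median was 36.8%. The remainder of PIEZO1 holds other genes, and none had a listed region within 1 kb. These were the noncoding genes PIEZO1-AS1 (88742767-88745748) and HSALR1 (88731180-88741425), the microRNA gene MIR4722 (88716278-88716337), and CTU2, a tRNA thiolation gene (88706503-88715396), which overlaps the end of PIEZO1.

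The nearest listed regions beyond the window were both in pair 3. Toward the end of the gene, 13.3 kb outside the window, a region of RNF166, a ubiquitin ligase gene (88700543-88700689), stood at 0.608 with overexpression and 0.356 in the control. On the other side, 52.6 kb outside, a region of GALNS, a lysosomal sulfatase gene (88839102-88839175), was lower with overexpression, at 0.805 against 0.889. Other protein-coding genes with any part within 200 kb of PIEZO1 numbered 14. Each was counted by the position of the gene, not of its listed region. Of these genes, 4 (28.6%) had a listed region in any pair, beside 8.84% of all protein-coding genes. The other 10 had none, among them CYBA, CDT1 and APRT. These shares are not adjusted for gene length or CpG-rich DNA, and RNF166 and GALNS had 1 entry each.

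The other genes that lie at least partly within 200 kb and had entries were CBFA2T3 and ZFPM1. Both encode transcriptional cofactors of blood cells. CBFA2T3 had 1 entry, in pair 1 (88924849-88924966, 0.446 with overexpression and 0.139 in the control). ZFPM1 had 5 entries, all higher. All of them lie more than 200 kb from PIEZO1, although the nearer end of ZFPM1 is within that distance. One of its regions, from 88508835 to at most 88509511, was listed in all 3 pairs, at 0.496, 0.469 and 0.493 in overexpressing libraries 1, 2 and 3, and 0.126, 0.136 and 0.163 in control libraries 1, 2 and 3. Apart from PIEZO1, it was the only one of these genes with a region in every pair.

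Other genes of mechanosensation were counted from 3 lists that were chosen with earlier results of these data known, against the 8.84% of all protein-coding genes with an entry. Of 34 genes for mechanically activated channels and their relatives besides PIEZO1, 4 had a listed region, which was higher in KCNK10 and TMEM63B, lower in ASIC2, and of both directions in TRPV4. The median difference of these 5 entries was 0.122, beside 0.236 over all 4344 entries of the series. PIEZO2, the paralog that serves touch, had no entry. TRPV4, a calcium-permeable channel gene, had a different region in each of 2 pairs. Its region at chromosome 12: 109820965-109821201 stood at 0.674 with overexpression and 0.328 in the control of pair 2, and the one at 109833159-109833264 stood at 0.148 and 0.367 in pair 3.

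Among 21 genes for regulators and partners of the channel, FLNA and STOM had entries. FLNA, which encodes an actin crosslinker, had 1, with a difference of 0.317 in pair 1. STOM, which encodes stomatin, a membrane protein, had 3 entries close to each other, but not overlapping, on chromosome 9. They lie at 121369525-121369738 in pair 2, and at 121369998-121370051 and 121370115-121370181 in pair 1. In pair 2 STOM stood at 0.478 with overexpression and 0.0364 in the control, a gain. In pair 1 its 2 regions were lower with overexpression, at 0.340 and 0.294, against 0.481 and 0.436 in the control. The median of the 4 entries was 0.0885.

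Of 30 genes downstream of calcium and mechanical signals, 8 had entries, all higher, with a median of 0.262 over 19 entries. Over the whole lists, 82.1%, 81.7% and 81.1% of entries were higher in pairs 1, 2 and 3. The medians of those higher entries were 0.264, 0.266 and 0.265, so the median of this list was near theirs. As most entries of the series were gains, the direction of this list is read no further. WWTR1, which encodes the coactivator TAZ, and NFATC2, a calcineurin-regulated transcription factor gene, each had 1 region listed in all 3 pairs. The WWTR1 region (chromosome 3: 149659259-149659357) stood at 0.432, 0.375 and 0.355 in overexpressing libraries 1, 2 and 3, and at 0.170, 0.0938 and 0.0929 in control libraries 1, 2 and 3, a difference of 0.269 ± 0.0108 (SD, n = 3 pairs). NFATC2 (chromosome 20: 51428510-51428644) stood at 0.212, 0.257 and 0.151 in overexpressing libraries 1, 2 and 3, and at 0.0313, 0.0451 and 0.0374 in control libraries 1, 2 and 3, a difference of 0.169 ± 0.0499. At WWTR1 and NFATC2 alike, the 2 groups did not overlap, which was usual, as 95.6% of the 272 distinct regions listed in all 3 pairs were so separated.

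TEAD1, which encodes the DNA-binding partner of YAP and TAZ, had 5 entries in 3 distinct regions. Those at chromosome 11: 12814893-12814991 and 12845125-12845257 were each listed in pairs 2 and 3, with mean differences of 0.212 and 0.416, and the remaining one in pair 1 alone (0.283). NOS3, the endothelial nitric oxide synthase gene, had 3 entries at 3 different places, with differences of 0.452 in pair 1 and 0.625 and 0.226 in pair 2. BMP6, an inducer of hepcidin, had 1 region in pairs 1 and 3 (chromosome 6: 7727711-7727859), at 0.436 and 0.378 in overexpressing libraries 1 and 3, and 0.249 and 0.127 in control libraries 1 and 3. Single entries were listed in HAMP, the hepcidin gene (0.493, pair 1), CAMK2G (0.213, pair 3) and NFATC1 (0.460, pair 2). Regions were assigned to genes by position, and longer genes or genes with more CpG-rich DNA can hold more entries, which these counts do not adjust for.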

How the data were processed

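DNA methylation had been measured by RRBS in 6 libraries. Per the labels' protocols, DNA spiked with lambda DNA was cut with MspI and treated with bisulfite. Coordinates are on hg38, per the submitters' processing notes. Which aligner and region caller were run, and how, is not given in the sources used here. Per the file headers, the authors gave each region's mean methylation level per library, a fraction from 0 to 1, a signed difference, an area score, and its count of CpG sites. The deposited mapping summary gives read counts and percent mapping. The deposited difference equalled overexpression minus control within 1e-12. No coverage is given, so the depth behind a level is unknown and no interval or coverage minimum could be used.

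Entries overlapping by at least 1 bp were chained into distinct regions, with values weighted by CpG sites (Python 3.11.15, pandas 2.3.3). The chaining was tested on simulated regions that lay far apart and whose pieces had equal levels. Close regions and the weighting of pieces with unlike levels, as in B and D, were therefore not tested. Genes came from the RefSeq table of GRCh38.p14, with 1 kb each side. The 6 libraries were grouped by their titles, and file columns were matched by group and number. Genes named beside PIEZO1 were the 5 nearest by level, up to 10 with as many regions shared by all pairs (ordered by their number, then mean difference), those within 200 kb with an entry, and listed genes with an entry in 2 or more pairs. FLNA, KCNK10, TMEM63B, ASIC2, HAMP, CAMK2G, NFATC1, PIEZO2, CYBA, CDT1 and APRT fall outside that rule and were named after their values were seen. The gene and the lists were chosen with earlier results of these data known, and no test was run, since the calls chose the entries.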

Additional observations from a re-analysis of the deposited data

How the results depend on the processing

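The alternatives were the gene with no margin or with 5 kb, at least 6 CpG sites, differences of at least 0.2, other overlap rules, unweighted means, regions listed in all pairs alone, and each pair left out. The first 4 left all PIEZO1 values as reported, and could not have changed them. Every PIEZO1 entry lay inside the gene and had at least 7 CpG sites, and the smallest difference was 0.205. The nearest entry outside the window was 13.3 kb away. Leaving out a pair gave 7 to 9 entries, with 7 without pair 3, which split both long regions, and 2 to 3 regions shared by all remaining pairs. Without pair 2 the pieces of region B stay separate, which makes 3. The mean difference then ranged from 0.285 to 0.315. Unweighted means gave a control level of 0.232, against 0.212 weighted, since the small highly methylated piece of B then counts fully. With no margin, 1 regulator gene instead of 2 had an entry, and with 5 kb, 6 channel genes instead of 4 and 9 downstream genes instead of 8. No paired analysis was possible because the calls of each pair selected the entries, so no test was run. Differences are given by pair with their SD. Listed differences come from the reads that made the call, so they tend to exceed those of a fresh measurement.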
